A study of Mus musculus with 12 samples.

Results

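The Slc25 genes encode the mitochondrial carriers, the transporters that move nucleotides, organic acids, amino acids, cofactors and metal ions across the inner mitochondrial membrane. Members were the protein-coding genes of the deposited count table whose symbol is Slc25a followed by a number. This gave 47 genes of 54532 in all, of which 22046 are protein coding. The counts come from bulk RNA sequencing of 3T3-L1, a wild-type mouse preadipocyte line that can be turned into fat-storing adipocytes, in 12 libraries of 4 groups of 3. Untreated cells (titled NC) were compared with cells given DMI, which stands for dexamethasone (1 µM), 3-isobutyl-1-methylxanthine (IBMX, 0.5 mM) and insulin (10 µg/ml), added after confluence and kept until day 2. The other two groups received the same cocktail with luteolin or with quercetin, plant polyphenols of which luteolin is a flavone and quercetin a flavonol, with a hydroxyl group that luteolin lacks. All groups were collected on day 6. The labels give neither the dose nor the time of the compounds. The text on induction is attached to every sample, so only the title and treatment label mark a sample as untreated. The labels do not say whether replicates were separate cultures, and the p-values then measure only the spread between these libraries, which may be technical.

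Carriers of this family share a fold built from repeated pairs of membrane helices and mostly work as exchangers, taking one substrate in for another out. They are encoded in the nucleus, made in the cytosol and inserted into the inner membrane by a dedicated import route. In fat cells the citrate carrier is known for exporting the carbon from which cytosolic acetyl-CoA and then fatty acids are built, and the dicarboxylate, oxoglutarate and aspartate-glutamate carriers for moving malate and reducing equivalents alongside it. The ADP/ATP carriers exchange the product of oxidative phosphorylation for its substrate, and the carnitine-acylcarnitine carrier brings in fatty acids for oxidation.

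Of the 47 carriers, 40 passed the low-count filter that left 14855 genes for testing. Slc25a21, Slc25a31 and Slc25a43 had no count in any library. Slc25a2, Slc25a41, Slc25a48 and Slc25a54 had counts too low to test, at most 0.497 CPM (counts scaled by library total) in any library. Total counts per library ran from 14522182 to 19436796. Adipocyte markers (Adipoq, Fabp4, Plin1, Cidec, Lep and Retn) summed to between 1.43 and 14.4 CPM in the untreated libraries and to between 2348 and 10471 CPM with DMI, 1863 and 5312 CPM with luteolin added, and 516 and 2666 CPM with quercetin added. Preadipocyte markers (Dlk1, Pdgfra, Pdgfrb, Thy1 and Cd34) summed to between 7890 and 8204 CPM in untreated cells. Their sum was between 2397 and 4210 CPM with DMI, 1939 and 3181 CPM with luteolin added, and 3172 and 4547 CPM with quercetin added. Most of the untreated sum was Dlk1, at 6574 to 6903 CPM in untreated libraries and at 995 to 3321 CPM in induced ones. The sum therefore mainly follows that gene. The brown adipocyte gene Ucp1, the macrophage gene Adgre1 and the muscle genes Myod1 and Myog were at 0 throughout. The remaining muscle gene looked up, Des, was at 1.27 to 2.24 CPM in untreated libraries and at 8.43 to 25.9 CPM with DMI. The remaining macrophage genes (Ptprc, Cd68 and Csf1r) summed to 1.25 to 1.69 CPM in untreated libraries and to 1.29 to 2.95 CPM with DMI. Cidea, the remaining brown adipocyte gene, was at most at 0.378 CPM in any library. In each induced group the third library stood apart. Adipoq, which encodes adiponectin, was at 1553, 1880 and 472 CPM in the DMI libraries, at 1132, 1345 and 396 CPM with luteolin, and at 609, 641 and 131 CPM with quercetin. Results are therefore given with all libraries and, where it matters, without these 3. That choice was made after seeing these data and leaves only the first and second library of each induced group. Leaving out libraries because they stand apart narrows the spread by itself, so p-values of that fit overstate the evidence. In bulk RNA, fewer cells of a type and less RNA per cell cannot be told apart.

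Corrected for gene length, the family was led by the ADP/ATP carriers. Over all 12 libraries Slc25a5 (ANT2) averaged 256 CPM per kilobase and Slc25a4 (ANT1) 194 CPM per kilobase, followed by the citrate carrier Slc25a1 at 96.3 and the phosphate carrier Slc25a3 at 87.7 on the same scale. Slc25a39, which is required for mitochondrial glutathione import, averaged 71.5 CPM per kilobase, the dicarboxylate carrier Slc25a10 averaged 69.2 and the oxoglutarate-malate carrier Slc25a11 averaged 58.1. The summed level of all 47 carriers was 763 ± 16.1 CPM per kilobase in untreated cells (SD, n = 3), 1357 ± 353 with DMI, 1181 ± 153 with luteolin added and 991 ± 240 with quercetin added. By library the sum was 756, 751 and 781 in untreated cells, 1455, 1650 and 965 with DMI, 1250, 1287 and 1006 with luteolin, and 1080, 1174 and 719 with quercetin, all in CPM per kilobase. Every DMI and luteolin library lay above the untreated range, while the third quercetin library lay below it. The order of the 3 induced groups did not exceed their spread.

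The first comparison asked which carriers differ between cells induced with DMI and untreated cells. Of the 40 tested carriers, 19 rose and 3 fell past the threshold of 0.05 (quasi-likelihood F-test of edgeR, adjusted by Benjamini-Hochberg over all genes). Of all genes tested, 14.7% rose and 12.4% fell. The median log2 fold change was 0.41 over the carriers and -0.04 over all genes. With the third induced libraries left out, 23 carriers rose and 5 fell, where 27.5% of all genes rose and 25.2% fell. The count of called carriers dropped from 22 to 11 without the second DMI library, to 12 without the first, to 12 without the first untreated library and to 13 without the second. Calls over all genes dropped as well, from 4024 to 1865, 1936, 2407 and 2441 in the same order.

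**Figure D1:**
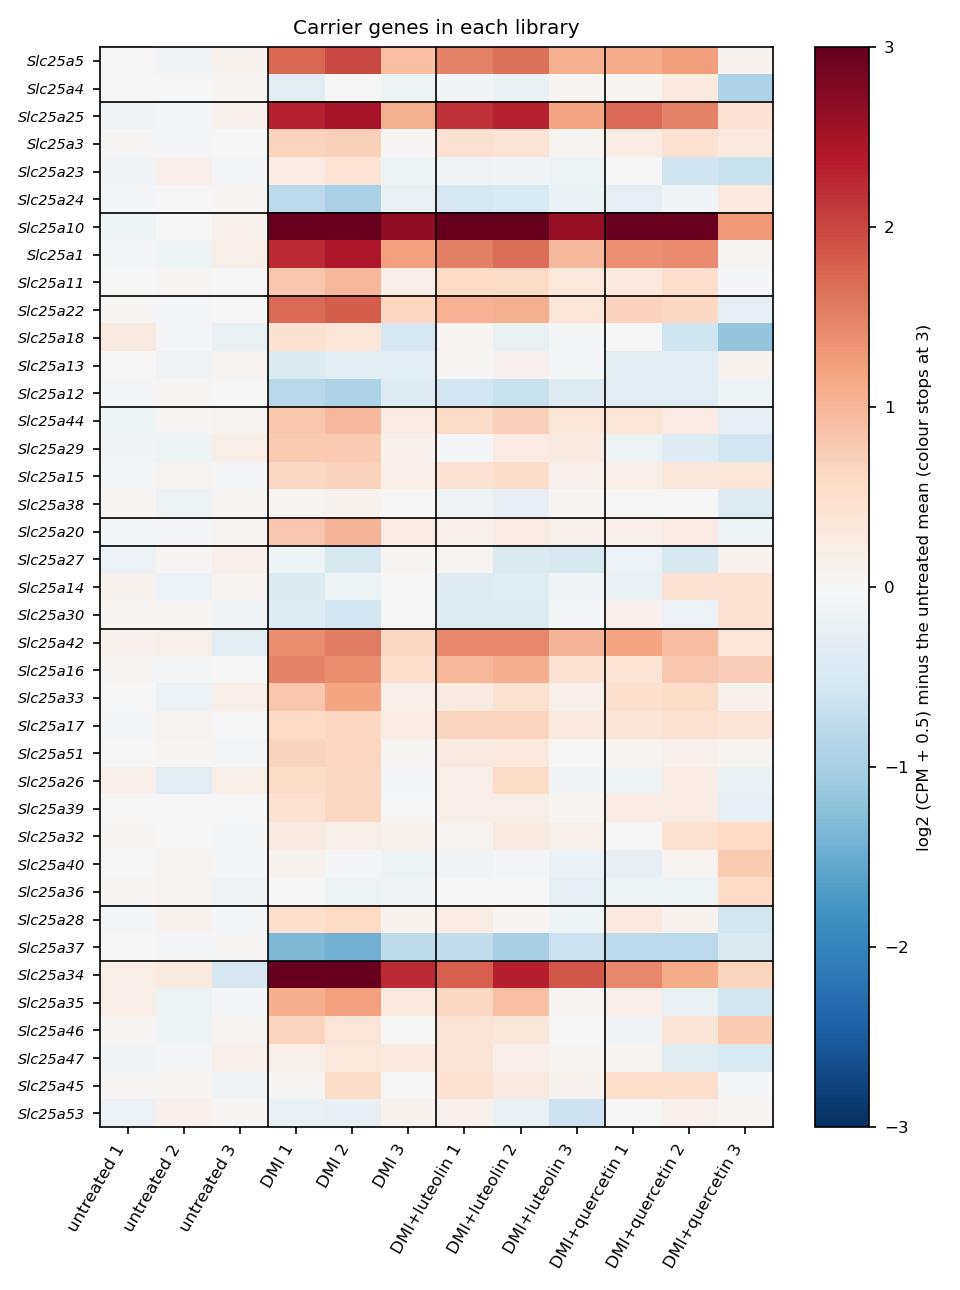
Level of 39 of the 40 tested carriers (rows, in groups by substrate) in each of the 12 libraries (columns), as log2 (CPM + 0.5) minus the mean of the untreated libraries. Red is above and blue below the untreated mean, and the colour stops at 3. Slc25a10, Slc25a34, Slc25a25, Slc25a1 and Slc25a5 are red across the DMI libraries, Slc25a37 is blue, and the third induced libraries are paler than the others for most of these genes.

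The organic acid carriers rose most as a group: 3 of 3 tested members passed, with a median log2 fold change of 2.05. Slc25a10 exchanges malate or succinate for phosphate. It was at 26.6, 28.8 and 31.8 CPM in the untreated libraries and at 503, 567 and 186 CPM with DMI. All 3 DMI libraries were far above the untreated ones, and the third was the lowest of them. The difference was 14.4-fold (3.85 ± 0.52 SE on the log2 scale, edgeR's adjusted p = 0.000462). Its share of the summed carrier level per kilobase went from 1.1 ± 0.0802% (SD, n = 3) in untreated cells to 8.5 ± 2.54% with DMI. The citrate carrier Slc25a1 was at 80.8, 77.1 and 94.4 CPM in untreated cells and at 395, 450 and 198 CPM with DMI, again without overlap. It rose 4.13-fold (2.05 ± 0.36 SE on the log2 scale, adjusted p = 0.00191). Slc25a11, which exchanges oxoglutarate for malate, rose 1.64-fold (adjusted p = 0.0186). Rnf167 overlaps Slc25a11 on the opposite strand at a mean of 32.7 CPM, and the sources used here do not say whether counting used strand.

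The largest fold of any carrier was that of Slc25a34, a carrier without an assigned substrate that was scarcely detected in untreated cells. It was at 0.311, 0.358 and 0 CPM in untreated cells and at 8.37, 11.5 and 2.83 CPM with DMI. The groups did not overlap, and the highest DMI library was still far below the level of Slc25a10. The fitted difference was 32.9-fold (5.04 ± 0.69 SE on the log2 scale, edgeR's adjusted p = 0.00051), and 44.3-fold without the third induced libraries. Slc25a35, likewise without an assigned substrate, was at 7.77, 6.02 and 6.53 CPM in untreated cells and at 15, 16.4 and 8.43 CPM with DMI. It rose 1.96-fold (0.97 ± 0.29 SE on the log2 scale, adjusted p = 0.0287). That call was lost when any 1 of the 3 untreated libraries, or the first or second DMI library, was left out (adjusted p from 0.0555 to 0.13).

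The stretches just upstream of the starts of Slc25a10 and Slc25a34 are shown because these 2 genes changed most, and that of Slc25a29 because it is the other carrier whose fall with quercetin passed the test below. Each is the 150 bases before the RefSeq start on GRCm38.p6, 5′ to 3′ in the direction of transcription. Capitals mark a GC box (GGGCGG on either strand) or a CCAAT box (CCAAT on either strand), 2 common promoter motifs. Slc25a10 is chr11:120491687-120491836 on the plus strand, Slc25a34 is chr4:141623835-141623984 on the minus strand and Slc25a29 is chr12:108835877-108836026 on the minus strand.
Slc25a10: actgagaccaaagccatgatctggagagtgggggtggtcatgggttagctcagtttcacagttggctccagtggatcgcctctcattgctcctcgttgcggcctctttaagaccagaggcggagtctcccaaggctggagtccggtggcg
Slc25a34: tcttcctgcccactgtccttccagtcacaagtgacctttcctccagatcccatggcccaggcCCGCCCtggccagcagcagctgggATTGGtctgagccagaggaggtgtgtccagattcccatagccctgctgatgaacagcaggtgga
Slc25a29: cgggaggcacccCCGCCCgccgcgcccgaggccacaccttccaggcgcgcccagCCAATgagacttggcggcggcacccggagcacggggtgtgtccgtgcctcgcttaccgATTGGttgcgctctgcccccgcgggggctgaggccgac
The stretch of Slc25a10 held neither motif, that of Slc25a34 held a GC box from -88 to -83 and a CCAAT box from -64 to -60, and that of Slc25a29 held a GC box from -138 to -133 and CCAAT boxes from -96 to -92 and from -38 to -34. RefSeq gave 46 start windows for 36 carriers and none for 11. In the 250 bases before the start, both strands, GGGCGG was in 32 of the 46 carrier windows (69.6%) and in 32.7% of all 32851 windows. CCAAT was in 21 (45.7%), against 33.8% of all windows. The carrier windows were richer in G and C, with a median of 57.4% against 52.4%. These 2 motifs were added after the search for 3 others. The estrogen-related receptor site TCAAGGTCA was in no carrier window and in 0.387% of all, a pair of AGGTCA repeats 1 base apart was in none and in 0.0335% of all, and the NRF1 core GCATGCGC was in 2 carrier windows (4.35%, those of Slc25a31 and Slc25a54) and in 2.26% of all. These are matches of letters only.

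Of the ADP/ATP carriers, only the form Slc25a5 passed the test. Slc25a5 was at 195, 184 and 210 CPM in untreated cells and at 646, 778 and 369 CPM with DMI, without overlap. It rose 3.04-fold (1.61 ± 0.31 SE on the log2 scale, edgeR's adjusted p = 0.00303). Slc25a4, the form known from heart and muscle, was at 475, 477 and 494 CPM in untreated cells and at 385, 481 and 440 CPM with DMI. Its groups overlapped, and its log2 fold change of -0.15 (95% interval -0.66 to 0.37, adjusted p = 0.688) did not pass. Per kilobase, the level of Slc25a5 divided by that of Slc25a4 was 0.586, 0.553 and 0.607 in the untreated libraries and 2.4, 2.31 and 1.2 in the DMI libraries. Slc25a4 was thus the more abundant of the pair in each untreated library and Slc25a5 in each DMI library. With luteolin added the ratio was 1.74, 2.08 and 1.17, and with quercetin added 1.2, 1.13 and 1.2, so all 9 induced libraries lay above 1. The ratio was chosen with the levels known and carries no test. A processed copy, Slc25a5-ps, exists in the genome, and the sources used here do not say how reads matching both were counted.

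**Figure D2:**
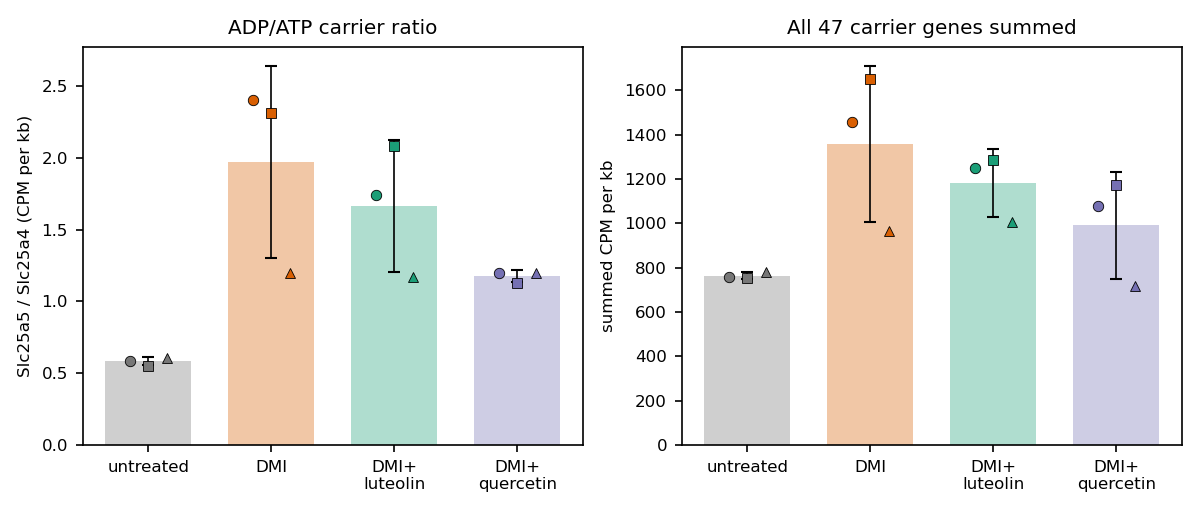
Left, Slc25a5 divided by Slc25a4, both in CPM per kilobase; right, the summed level of all 47 carriers in CPM per kilobase. Bars are means, error bars SD of 3 libraries, and circles, squares and triangles the first, the second and the third library of each group. The ratio is between 0.553 and 0.607 in untreated libraries and between 1.13 and 2.4 in the induced ones.

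Among phosphate-linked carriers, the calcium-regulated ATP-Mg/phosphate carriers went in different directions. Slc25a25 was at 9.14, 9.72 and 10.9 CPM in untreated cells and at 51.3, 57.1 and 21.4 CPM with DMI. It rose 4.36-fold without overlap (2.12 ± 0.41 SE on the log2 scale, edgeR's adjusted p = 0.00325). Slc25a24, of the same subfamily, fell 1.54-fold, from a mean of 90.7 to 58.9 CPM (adjusted p = 0.0317). The third member tested, Slc25a23, had a log2 fold change of 0.19 (95% interval -0.26 to 0.63). The phosphate carrier Slc25a3, which supplies ATP synthase, rose 1.42-fold with overlapping groups (adjusted p = 0.0486). Naif1 overlaps Slc25a25 on the opposite strand at a mean of 13.2 CPM.

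Of the aspartate and glutamate carriers, 1 rose and 1 fell. The glutamate carrier Slc25a22 was at 34.5, 32.9 and 33.1 CPM in untreated cells and at 109, 120 and 52.4 CPM with DMI. It rose 2.81-fold without overlap (1.49 ± 0.32 SE on the log2 scale, edgeR's adjusted p = 0.00552). Slc25a12 (aralar), an aspartate-glutamate exchanger of the malate-aspartate shuttle, fell 1.63-fold from a mean of 83.3 to 51 CPM (adjusted p = 0.00465). Its close relative Slc25a13 (citrin) was at 20.2, 18.7 and 21.3 CPM in untreated cells and at 14.8, 15.6 and 15.9 CPM with DMI. These values did not overlap, but the log2 fold change of -0.38 (95% interval -0.69 to -0.06) did not pass over all genes (adjusted p = 0.0713). The second glutamate carrier, Slc25a18, stayed under 1.1 CPM in every library and overlaps Atp6v1e1, which averaged 181 CPM. Other amino acid carriers rose by small factors in 3 of 4 tested cases: Slc25a44, a branched-chain amino acid carrier, 1.64-fold, Slc25a29, a carrier of basic amino acids, 1.52-fold, and the ornithine carrier Slc25a15, 1.45-fold. Slc25a38, a glycine carrier needed for heme synthesis, had a log2 fold change of 0.05.

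Slc25a20 carries acylcarnitines into mitochondria. It was at 19.8, 19.4 and 21.3 CPM in untreated cells and at 35.7, 41.4 and 24.1 CPM with DMI. The groups did not overlap. Slc25a20 rose 1.67-fold (0.74 ± 0.18 SE on the log2 scale, edgeR's adjusted p = 0.0101), and without the second DMI library its adjusted p was 0.0604.

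Cofactor and nucleotide carriers rose in 6 of 11 cases, and none fell. Slc25a42, a carrier of coenzyme A, was at 29.2, 30.3 and 21.3 CPM in untreated cells and at 70.6, 79.1 and 40.9 CPM with DMI. Slc25a16, also linked to mitochondrial coenzyme A, was at 21.1, 19.7 and 20.5 CPM in untreated cells and at 57.8, 54.7 and 29.4 CPM with DMI. These 2 genes rose to a similar extent, 2.36-fold for Slc25a42 (adjusted p = 0.00521) and 2.32-fold for Slc25a16 (adjusted p = 0.00382), and neither overlapped. The pyrimidine nucleotide carrier Slc25a33 was at 9.57, 8.53 and 11.1 CPM in untreated cells and at 17.6, 22.8 and 11 CPM with DMI. For this gene the third DMI library lay within the untreated range. The rise of Slc25a33 was 1.76-fold (adjusted p = 0.0235), and the call was lost without the first or second untreated or the first or second DMI library (adjusted p from 0.0735 to 0.136). Slc25a17, the peroxisomal member of the family, rose 1.43-fold, and the NAD carrier Slc25a51 rose 1.41-fold. The glutathione carriers did not pass: Slc25a39 had a log2 fold change of 0.37 (adjusted p = 0.119) and Slc25a40 one of -0.03 (adjusted p = 0.933). The folate carrier Slc25a32 (0.19, adjusted p = 0.375) and Slc25a36, a pyrimidine nucleotide carrier (-0.08, adjusted p = 0.785), did not pass either. Slc25a26, which carries S-adenosylmethionine, overlaps Lrig1, a gene at a mean of 621 CPM, so its own value of 0.40 is uncertain.

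Of the mitochondrial iron importers, 1 of 2 fell. Slc25a37 (mitoferrin 1) was at 79.4, 77.8 and 82 CPM in untreated cells and at 31.1, 29 and 46.9 CPM with DMI. It fell 2.24-fold without overlap (-1.16 ± 0.18 SE on the log2 scale, edgeR's adjusted p = 0.00106), the largest fall of any carrier tested. Slc25a28 (mitoferrin 2) had a log2 fold change of 0.42 in the other direction and did not pass (95% interval -0.03 to 0.87, adjusted p = 0.156). None of the 3 carriers named for their likeness to uncoupling proteins passed, with log2 fold changes between -0.31 and -0.19. Among carriers put in no substrate group, Slc25a46, Slc25a47, Slc25a45 and Slc25a53 had log2 fold changes between -0.13 and 0.37 and did not pass.

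**Figure D3:**
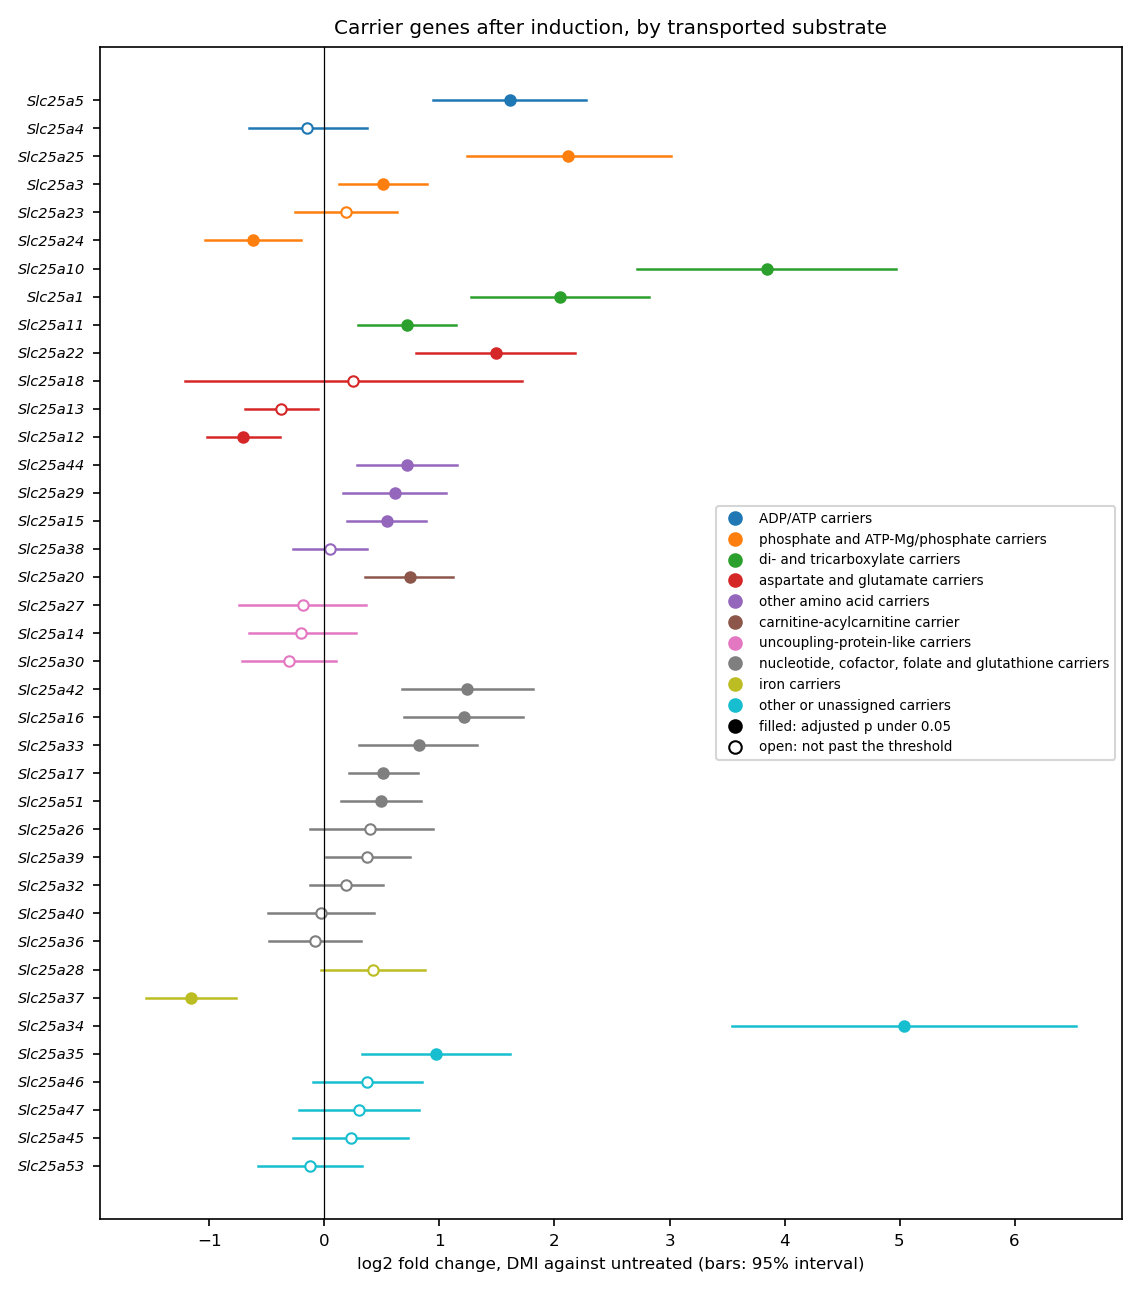
Log2 fold change of 39 of the 40 tested carriers, DMI against untreated (horizontal axis), grouped and coloured by substrate, with 95% intervals as bars. Filled points passed an adjusted p under 0.05: 18 lie to the right of 0, from 0.49 to 5.04, and 3 to the left.

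**Figure D4:**
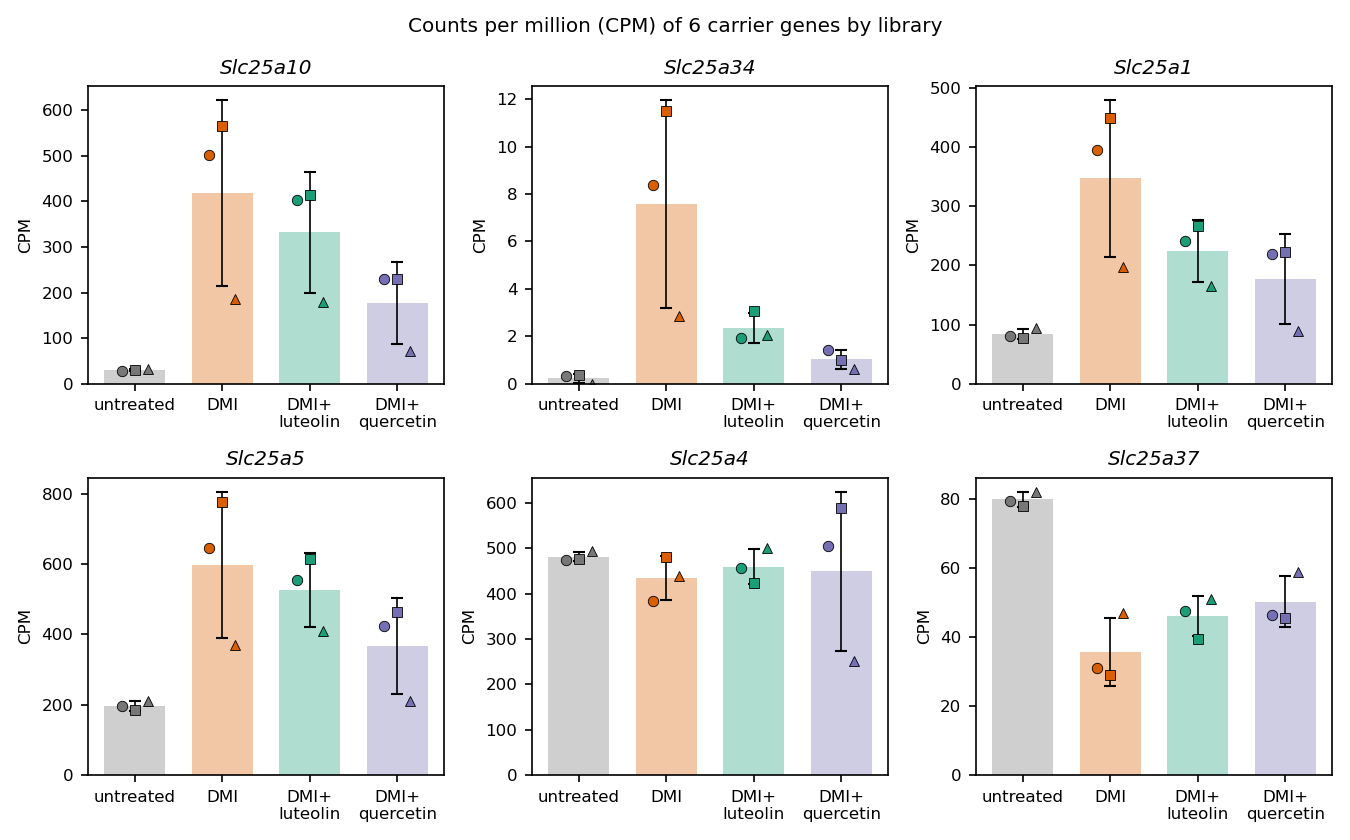
CPM of 6 carriers in the 4 groups. Bars are means, error bars SD of 3 libraries, and circles, squares and triangles the first, the second and the third library. Slc25a10, Slc25a34, Slc25a1 and Slc25a5 are higher in every DMI library than in any untreated one, Slc25a37 is lower, and Slc25a4 overlaps between these groups.

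Genes that work beside the carriers were taken from 5 lists and compared between DMI and untreated cells, where 14.7% of all genes rose and 12.4% fell. Of the machinery that imports carrier proteins, 7 of 15 tested members rose and none fell (median log2 fold change 0.54), among them Tomm40, the outer membrane pore, at 2.49-fold and Timm22, the inner membrane insertase, at 1.67-fold. Of the carrier relatives outside the naming rule, Ucp2 rose 2.92-fold and Mtch2 rose 1.69-fold, and Ucp3 rose from no count in untreated cells to a mean of 2.65 CPM. Mtch1, the most abundant relative tested, went from a mean of 598 to 424 CPM and did not pass (log2 fold change -0.50, edgeR's adjusted p = 0.0945). Among 17 other mitochondrial membrane transporters, 7 rose and 2 fell (median 0.42). Both subunits of the pyruvate carrier were among those that rose, Mpc2 4.31-fold and Mpc1 2.89-fold, as was Letm1 at 3.02-fold, while the calcium uniporter gene Mcu fell 1.56-fold. Of 13 tested enzymes of the citrate, malate-aspartate, glycerol phosphate and carnitine shuttles, 9 rose and 1 fell (median 1.68). Pcx, pyruvate carboxylase, rose 38.3-fold, citrate synthase Cs 4.08-fold and Cpt2 4.32-fold, and the cytosolic aspartate aminotransferase Got1 fell 1.65-fold. Acly, which splits exported citrate, had a log2 fold change of 0.20 and did not pass (adjusted p = 0.297). Of 9 biogenesis factors, 4 rose and 2 fell (median 0.12): Ppargc1b rose 10.5-fold and Esrra 2.93-fold, and Ppargc1a fell 1.63-fold. The share of counts from the mitochondrial genome was between 1.85% and 1.91% in untreated libraries and 4.72%, 4.28% and 2.87% in the DMI libraries, and its part in these results was not tested.

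The second comparison set DMI with luteolin against DMI alone. No carrier passed (smallest adjusted p = 0.584 in edgeR's quasi-likelihood fit), where 0.0202% of all genes did. At an unadjusted p under 0.05 there were 3 carriers and 904 genes, and DESeq2 called no carrier and 48 genes. The median log2 fold change was -0.15 over the carriers and -0.02 over all genes. The carrier with the smallest p was Slc25a34, at 1.92, 3.07 and 2.06 CPM with luteolin against 8.37, 11.5 and 2.83 CPM with DMI alone. Only the third DMI library reached into the luteolin range. Its log2 fold change was -1.68 (95% interval -2.81 to -0.55, adjusted p = 0.584). Slc25a20 was at 22.5, 24 and 22.6 CPM with luteolin, each library below all DMI libraries, with a log2 fold change of -0.55 (95% interval -0.93 to -0.16, adjusted p = 0.604). Slc25a13 was at 20.6, 21.8 and 19.4 CPM, above every DMI library, with a log2 fold change of 0.42 (95% interval 0.10 to 0.73, adjusted p = 0.679). Slc25a33 was at 11.8, 13.4 and 10.9 CPM, which overlapped the DMI values, with a log2 fold change of -0.50 (95% interval -1.01 to 0.00).

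For 4 abundant carriers the luteolin and DMI libraries overlapped. Slc25a10 was at 404, 414 and 179 CPM with luteolin (log2 fold change -0.33, 95% interval -1.33 to 0.66), Slc25a1 at 241, 267 and 165 CPM (-0.63, interval -1.38 to 0.12) and Slc25a5 at 555, 616 and 409 CPM (-0.18, interval -0.83 to 0.46). Slc25a4 was at 456, 423 and 501 CPM (0.08, interval -0.43 to 0.59). These intervals leave room for differences of up to 2-fold or more in Slc25a10 and Slc25a1. With the third induced libraries left out, 11 carriers were lower and 3 higher with luteolin, where 6.23% of all genes were lower and 4.14% higher. In that fit Slc25a34 (adjusted p = 0.0038), Slc25a20 (0.00108), Slc25a13 (0.0138) and Slc25a33 (0.0186) passed. Leaving out the third DMI library alone gave 2 lower carriers, Slc25a34 and Slc25a20, among 259 genes called. The fit on all libraries called 3 genes. Same-numbered DMI and luteolin libraries deviated together, which by itself does not show that the numbers mark pairs. With the replicate number as a block over all 12 libraries, 0 carriers and 25 genes were called, and with the block on these 6 libraries alone, 5 carriers, all lower, and 929 genes.

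The third comparison set DMI with quercetin against DMI alone. Here 2 carriers fell and none rose, where 0.848% of all genes fell. At an unadjusted p under 0.05 by edgeR, in either direction, there were 20 of 40 carriers and 3159 of 14855 genes. The median log2 fold change was -0.39 over the carriers and 0.02 over all genes. Slc25a34 was at 1.42, 1.01 and 0.614 CPM with quercetin, each below every DMI library. It fell 7.35-fold (-2.88 ± 0.56 SE on the log2 scale, edgeR's adjusted p = 0.0469). Slc25a29 was at 9.93, 8.29 and 7.24 CPM with quercetin and at 19.3, 19.3 and 12 CPM with DMI, again without overlap, and at 10.3, 10.1 and 12.8 CPM in untreated cells. It fell 1.98-fold (-0.99 ± 0.21 SE on the log2 scale, adjusted p = 0.0492). Both calls are close to the threshold. No carrier passed when 1 of these was left out: any untreated library, the first or second DMI library, the first or second luteolin library, or the second or the third quercetin library. Leaving out the third DMI library gave 16 lower and 4 higher carriers among 2646 genes called, and leaving out the first quercetin library gave 4 lower carriers among 575 genes, where the fit on all libraries called 150 genes. The authors' deposited table has 4 carriers under an adjusted p of 0.05 in this comparison, among them Slc25a29, Slc25a34 and Slc25a35.

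Other induced carriers had lower means with quercetin but did not pass. The carriers named here as risen or fallen after induction were picked by their DMI values, and the same DMI libraries serve again in this comparison. Such a choice alone can make values look moved back toward the untreated level. Slc25a35 was at 7.8, 5.66 and 4.42 CPM, below every DMI library, with a log2 fold change of -1.15 (95% interval -1.79 to -0.51, adjusted p = 0.0729). Slc25a20 was at 22.6, 24.1 and 18.5 CPM, its highest value equal to the lowest DMI value to 3 digits (-0.63, interval -1.02 to -0.25). The glutamate carrier Slc25a22 was at 54.7, 51.5 and 27.1 CPM, which overlapped the third DMI library (-1.08, interval -1.76 to -0.40, adjusted p = 0.0998). Slc25a10 was at 230, 229 and 72.2 CPM with quercetin (-1.24, interval -2.25 to -0.23, adjusted p = 0.157). Slc25a1 was at 219, 223 and 88.7 CPM (-0.97, interval -1.72 to -0.22, adjusted p = 0.144). In both organic acid carriers, 2 quercetin libraries lay between the third DMI library and the other two, and the third quercetin library lay lowest. Slc25a5 was at 424, 465 and 212 CPM (-0.70, interval -1.35 to -0.06) and Slc25a25 at 33.4, 28.7 and 13.6 CPM (-0.77, interval -1.62 to 0.07). Slc25a4 was at 506, 590 and 252 CPM, with libraries both above and below the DMI range (0.05 by the fit). The carriers that fell after induction had higher means with quercetin and did not pass: Slc25a37 at 46.4, 45.4 and 58.8 CPM (0.49, interval 0.10 to 0.88), Slc25a12 at a mean of 69.2 against 51 CPM (0.44, interval 0.12 to 0.75) and Slc25a24 at 90.5 against 58.9 CPM (0.62, interval 0.20 to 1.04).

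With the third induced libraries left out, 20 carriers were lower and 5 higher with quercetin, where 16.4% of all genes were lower and 17% higher. In that fit Slc25a10 was lower by 2.29-fold (adjusted p = 4.59e-07 by edgeR) and Slc25a22 by 2.12-fold (5.42e-07). The sizes were close to those with all libraries, while the adjusted p-values were far smaller. Calls over all genes went from 150 with all libraries to 5049 in that fit. The third libraries were left out because they stood apart, so these p-values do not measure the full spread between replicates. The third quercetin library had the lowest Adipoq of all induced libraries, 131 CPM, and the highest share of mitochondrial genome counts of its group, 4.65% against 3.29% and 3.92%. Their part in these results was not tested.

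**Figure D5:**
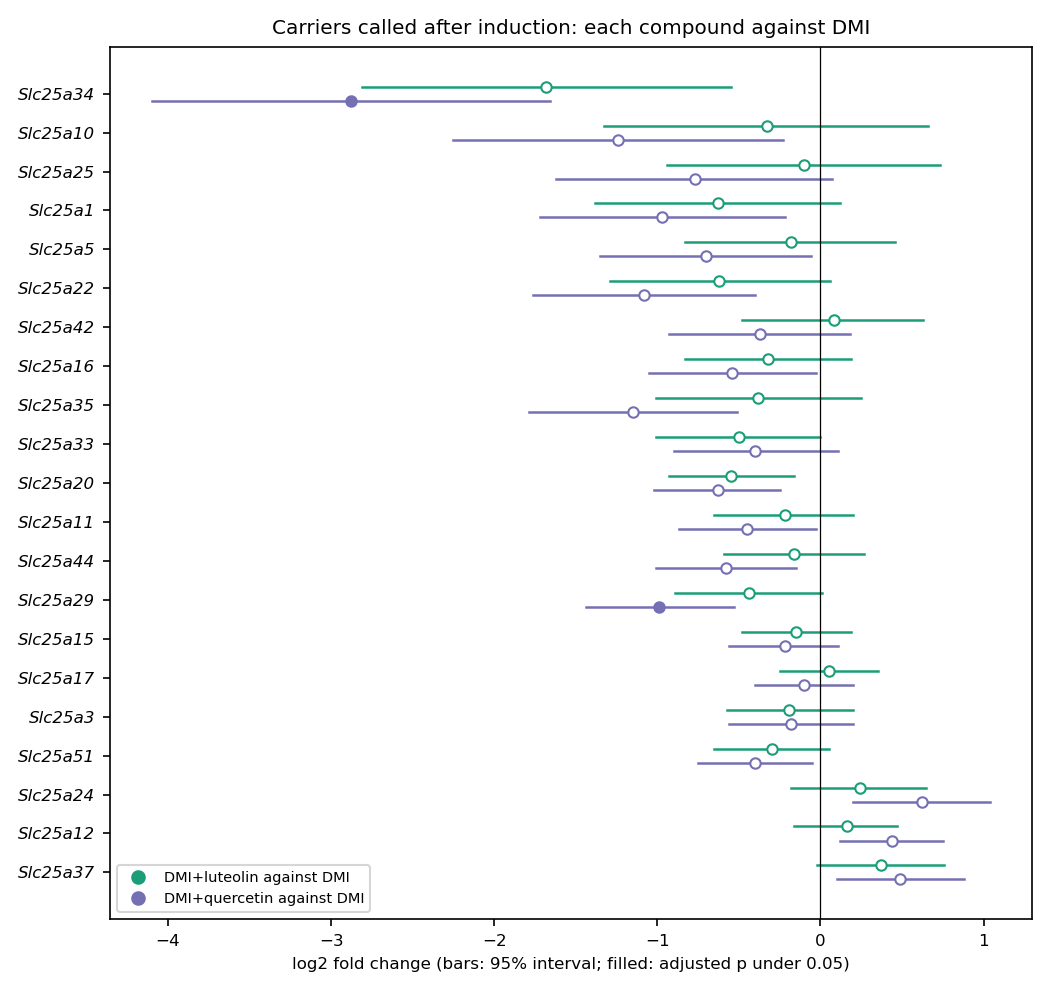
Log2 fold change of 21 of the 22 carriers called after induction, with luteolin (green) and with quercetin (purple), each against the same DMI libraries, with 95% intervals. Filled points passed an adjusted p under 0.05: Slc25a34 at -2.88 and Slc25a29 at -0.99, both with quercetin. The same DMI libraries also served to pick these carriers.

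The last comparison set the compounds against each other, at doses that are not given and so cannot be called matched. No carrier and 0% of all genes passed by edgeR's quasi-likelihood test, and at an unadjusted p under 0.05 there were 5 carriers and 1327 genes. DESeq2 called no carrier and 1 gene. Slc25a14, an uncoupling-protein-like carrier, was at 6.66, 10.5 and 10.6 CPM with quercetin and at 5.76, 5.84 and 7.12 CPM with luteolin, which overlap (log2 fold change 0.57, 95% interval 0.11 to 1.03, adjusted p = 0.541). With DMI alone Slc25a14 was at 5.6, 6.85 and 7.7 CPM, and in untreated cells at 8.27, 6.74 and 8.1 CPM. Slc25a35 was at 10.6, 13 and 7.05 CPM with luteolin and overlapped the quercetin values (-0.78, interval -1.42 to -0.13, adjusted p = 0.541). Slc25a29 was at 10.5, 13.2 and 13.4 CPM with luteolin, each above every quercetin library (-0.54, interval -1.0 to -0.09, adjusted p = 0.541). For Slc25a34, the carrier with the largest fold in both compound comparisons, the difference between compounds was -1.20 on the log2 scale (interval -2.44 to 0.04), with no overlap between 1.92, 3.07 and 2.06 CPM with luteolin and 1.42, 1.01 and 0.614 CPM with quercetin. No difference between these compounds, which differ by a hydroxyl group, passed for any carrier with all libraries, and intervals of this width do not show that the compounds act alike. With the third induced libraries left out, 9 carriers were lower and 2 higher with quercetin than with luteolin, where 6.95% of all genes were lower and 6.83% higher. Slc25a35 (adjusted p = 0.0126) was among the lower ones.

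Several induced carriers are given here for luteolin and quercetin side by side, since both comparisons share the DMI libraries. Those libraries also served to pick the induced carriers. Slc25a22 was at 69.8, 71.2 and 43.1 CPM with luteolin, Slc25a25 at 46.5, 51 and 23.2 CPM, and Slc25a37 at 47.6, 39.5 and 50.9 CPM. In these 3 genes the third luteolin library was the one nearest to the untreated level, as the third DMI library was among the DMI ones. Slc25a42 was at 73.1, 73.4 and 54.8 CPM with luteolin and at 61.2, 51.2 and 34.5 CPM with quercetin, which overlap. Slc25a16 was at 41.2, 44.4 and 27.8 CPM with luteolin and at 27.3, 36 and 34.3 CPM with quercetin, also with overlap. Slc25a33 was at 13.7, 14.6 and 10.6 CPM and Slc25a13 at 15.8, 15.6 and 21.5 CPM with quercetin. In Slc25a13 the third quercetin library alone was near the untreated level. None of the 5 companion lists had a member past the threshold in any comparison with a compound when all libraries were used. With the third induced libraries left out, 9 of 13 shuttle enzymes were lower and 1 higher with luteolin than with DMI alone, and 10 were lower and 2 higher with quercetin. In that fit 6.23% of all genes were lower and 4.14% higher with luteolin, and 16.4% were lower and 17% higher with quercetin. Of the 17 other transporters, 5 were then lower and 1 higher with luteolin, and 11 were lower and 2 higher with quercetin. Of the 15 import genes, none passed with luteolin, and 5 were lower and 1 higher with quercetin. Of the 4 carrier relatives, 1 was lower with luteolin, and 3 were lower and 1 higher with quercetin. Of the 9 biogenesis factors, none passed with luteolin and 4 were lower with quercetin. Between the compounds, that fit had 7 of 13 shuttle enzymes, 4 of 17 other transporters and 2 of 15 import genes lower with quercetin. It also had 1 of 4 relatives and 1 of 9 biogenesis factors lower, and 2 other transporters, 1 import gene and 1 relative higher. Of all genes, 6.95% were lower and 6.83% higher with quercetin than with luteolin. With all libraries, among their members, Mpc2 had a log2 fold change of -0.91 with quercetin (adjusted p = 0.112) and -0.55 with luteolin (adjusted p = 0.854), and Pcx one of -1.58 and -0.59.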

How the data were processed

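The submitters deposited raw gene counts, for which the submitters' processing notes name featureCounts 1.5.0-p3 and CASAVA 1.8.2. The sources used here give no aligner, annotation or strand setting. The build in the notes is mm9, but 98.1% of gene positions in the deposited table equal GENCODE M21 (GRCm38), 44 of 47 carriers among them. The log2 fold changes and adjusted p-values in the authors' deposited table were used only where named. Gene lengths for levels per kilobase are those deposited.

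The test was that of edgeR 4.0.16, run in R 4.3.3 (filterByExpr, TMM, quasi-likelihood, 1 term per group over all 12 libraries), with Benjamini-Hochberg adjustment over the 14855 genes of each comparison and a threshold of 0.05. CPM use TMM-adjusted totals. The fit was tested on simulated data. No pair of replicates differed by less than the sampling noise. Same-numbered luteolin and DMI libraries deviated together (r = 0.261, 0.337 and 0.59). The labels do not say what a number marks. The deviations are from group means of 3 libraries, and the third library stood apart in each induced group. A shift shared by the third libraries alone can give a positive r, so these correlations cannot show that numbers mark pairs. Alternatives were RLE scaling, library totals, no filter, DESeq2 1.42.0, the replicate block, only the 6 libraries compared, and leaving libraries out.

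Carriers, lists and roles were chosen with earlier results of these data known. Genes given by library are the 3 most abundant carriers per kilobase, the 12 with the largest called fold after DMI, those called or with the smallest p in the other comparisons, and Slc25a1, Slc25a10, Slc25a20, Slc25a4 and Slc25a5. The values of 1 carrier are not reported here, though counts and medians over the family include it. Promoters are RefSeq's (GRCm38.p6).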

Additional observations from a re-analysis of the deposited data

How the results depend on the processing

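The count of carriers called for DMI against untreated was 22 and ran from 11 to 25 when 1 library was left out. With the replicate block it was 21 among 4662 genes called. With only the 6 libraries compared and the block it was 20 among 3905. For luteolin it was 0 with all libraries and 1 among 363 genes called without the low-count filter. With only the 6 libraries and the replicate block it was 5 among 929. With the third induced libraries left out it was 14 among 1566. When 1 library was left out it ran from 0 to 2. The replicate block over all libraries left it at 0, among 25 genes called. For quercetin against DMI it was 2 among 150 genes called. It was 0 among 59 with library totals only, 12 among 1737 without the filter and 6 among 958 with DESeq2. With the replicate block it was 12 among 1395. With only the 6 libraries it was 0 among 0, and 8 among 706 with these and the block. Without the third libraries it was 25 among 5049, and it ran from 0 to 20 when 1 library was left out. Between the compounds it was 0, 3 among 450 genes called without the filter and 11 among 2081 without the third libraries. The cause was not tested. Same-numbered quercetin and DMI libraries deviated together only loosely (r = 0.0682, 0.279 and 0.335). For the carriers tested singly, 435 of 480 alternatives over 24 results kept direction and side of the threshold, 33 lost the call, 12 gained it and 0 reversed. These alternatives include fits that leave out a library of a group not compared, which hardly moves the fold. Most of these carriers were also picked by their fold or p in these data. The count of 435 therefore does not measure how firm the calls are. Over all genes, the calls ran from 1865 to 7970 for DMI (4024 with all libraries), from 0 to 1566 for luteolin (3), from 0 to 5049 for quercetin (150) and from 0 to 2081 between the compounds (0). Depth limits Slc25a34, under 1 CPM in untreated cells, and the 7 carriers too low to test.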
